A study of Mus musculus with 11 samples.

Results

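Solute carriers are membrane proteins that move amino acids, sugars, vitamins, nucleotides and ions across the plasma membrane and the membranes of organelles, and their genes are named Slc with a family number. The array measured 261 such genes other than Slc2a1, and 135 of them, selected on a mean intensity over all 11 arrays of 100 or more, are described here. The other 126 lay below that level. Of the 135 symbols, 3 do not stand for carriers: Slc9a3r1 and Slc9a3r2 encode scaffold proteins and Slc4a1ap an adaptor, all named after a carrier. Across all genes, 7608 of 12393 reached the same level and were tested together with the carriers.

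T cells of the B10.BR mouse strain were cultured for 4 days with dendritic cells of the C57BL/6 strain, so that all 11 arrays come from alloreactive cultures and none from T cells alone. Their organ of origin was Liver, Spleen or one of the organs that the labels abbreviate as MLN and PLN, and the series asks whether that origin alters the T cells. Liver, MLN and PLN had 3 arrays each, with replicate numbers 2, 3 and 4. Spleen had 2 arrays, numbered 3 and 4. The labels give neither age, sex nor pooling of the animals, and they do not say that arrays of 1 organ are separate cultures or animals, so p-values here rest on the spread among arrays alone, some or all of it possibly technical.

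Resting T cells take up little nutrient. On activation they bring amino acid, glucose, lactate and metal carriers to the surface, among them the heavy chain Slc3a2 with its light chain Slc7a5, the glutamine carriers Slc1a5, Slc38a1 and Slc38a2, the glucose carriers Slc2a1 and Slc2a3, and the lactate carriers Slc16a1 and Slc16a3. Inside the cell, Slc25 proteins link the cytosol to mitochondria and Slc35 proteins bring nucleotide sugars into the Golgi apparatus and endoplasmic reticulum.

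The carriers just inside the threshold were Slc25a23, Slc22a23 and Slc38a3, at mean intensities of 104.9, 102.6 and 102.5. Just outside it lay Slc17a3 at 97.6, the cationic amino acid carrier Slc7a1 at 97.4 and Slc2a5 at 97.0. The cystine carrier Slc7a11, at 67.0, and the iron exporter Slc40a1, at 61.4, were also below it. Of the 135 probe sets, 27 carry the suffix _a_at, 5 the suffix _s_at and 3 the suffix _x_at, and such probe sets can share sequence between transcripts or related genes.

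Markers of T cells were high on every array and markers of dendritic cells were also present. The intensities of 10 T cell genes summed to 24881 to 25859 on the arrays numbered 3, 27745 to 36208 on those numbered 4 and 25404 to 30847 on those numbered 2. The 13 dendritic cell genes summed to 16097 to 17448, 8683 to 11376 and 11088 to 12515 in the same order. Between numbers 3 and 4, 10 of these 13 genes were lower in 4 and 2 higher, the latter including the integrin gene Itgax by 1.85 (log2). Of the 10 T cell genes 5 were higher and 2, Cd2 and Cd4, were lower, although their sums rose. Of the B cell genes 2 of 5 and of the NK cell genes 2 of 2 were higher. Of the 5 macrophage genes tested 2 were lower and 0 higher. Among all genes tested 22.1% were higher and 20.6% lower. The 5 hepatocyte, 4 neutrophil and 2 red cell genes measured were all below the threshold. In such mixed cultures, fewer cells of a type and less RNA per cell cannot be told apart. All differences below are of log2(intensity + 16) after quantile normalisation, and were tested with limma.

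The replicate number separated the arrays more than the organ did. In the median carrier gene the number held 46.8% of the variance over the arrays, the organ a further 20.5%, and 24.5% was left. The medians over all genes tested were 51.1%, 18.4% and 22.3%. The number was fitted first and the organ after it, with 5 residual degrees of freedom. Noise alone gives each term some share, so the organ's 20.5% is not the size of an organ effect. The number held more than the organ in 83 of the 135 carrier genes and in 5458 of all 7608. What the number stands for is not given in the labels.

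**Figure D1:**
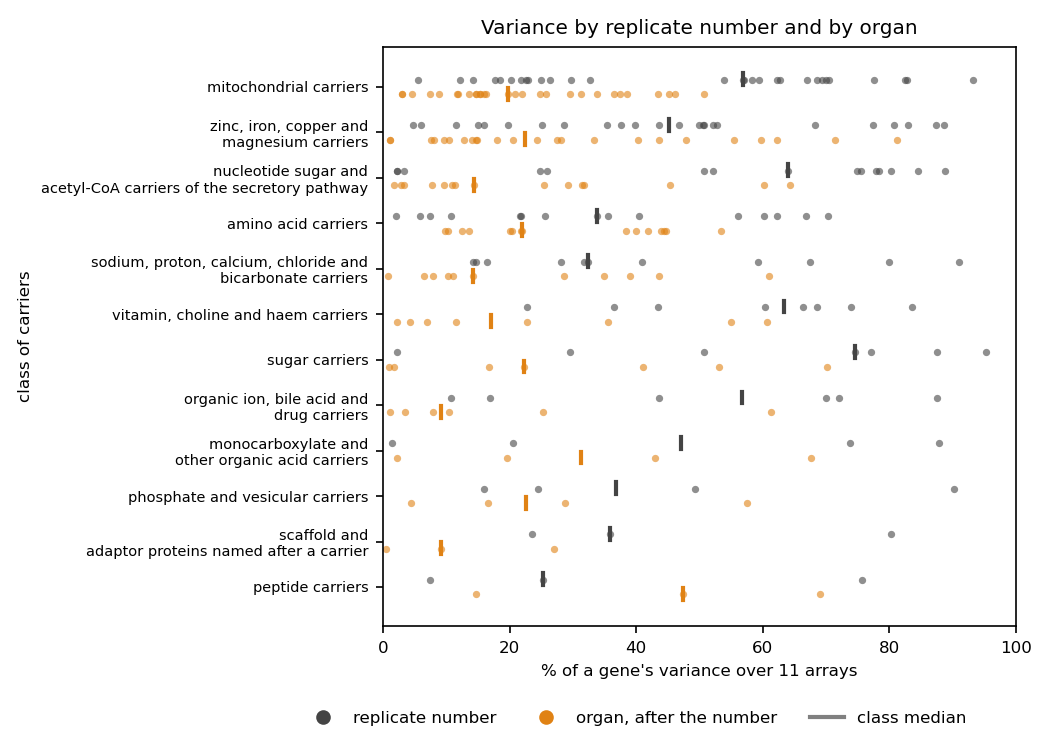
Share of each carrier gene's variance over 11 arrays (x axis, %) held by the replicate number (grey) and by the organ after the number (orange), for each class of carriers with at least 3 genes; a dot is a gene and a bar the class median. The number's median lies above the organ's in every class shown but the peptide carriers, for example 74.5% against 22.3% in the sugar carriers and 33.8% against 21.9% in the amino acid carriers.

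The first question was whether carrier genes differed with the organ of the dendritic cells. In the fit without the replicate number no carrier gene passed, either in the F-test over the 4 organs or for any organ against the mean of the others. Of all genes, 0.0394% passed the F-test, 0.092% the MLN contrast and 0% the Liver, PLN and Spleen contrasts. The smallest adjusted p of a carrier in these 5 tests was 0.962 in limma. At an unadjusted p under 0.05 there were 1 carrier gene in the F-test, 3 for Liver, 6 for MLN, 3 for PLN and 6 for Spleen, and 2.58%, 4.31%, 3.75%, 1.20% and 1.96% of all 7608 genes in the same order. These 4 contrasts share arrays with one another.

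The arrays pair by number, and with the number as a block 1 carrier gene was called, Slc2a3, which encodes a high-affinity glucose carrier of the plasma membrane. Its log2 levels were 12.55, 11.80 and 13.12 on the Liver arrays numbered 2, 3 and 4. On MLN they were 13.19, 12.69 and 13.44, on PLN 13.16, 12.42 and 13.42, and on the Spleen arrays numbered 3 and 4 they were 12.29 and 13.33. Liver was the lowest organ at each of the 3 numbers, while over all numbers the Liver values overlapped those of every other organ. Slc2a3 fell by 0.50 (SE 0.07) in Liver against the mean of the other organs, with adjusted p = 0.00578 in limma with the block, and its F-test gave adjusted p = 0.0109. With the block, 2% of all genes passed the F-test and 2.12% the Liver contrast, against 1 of 135 carrier genes in each. In MLN, Slc2a3 differed by 0.32 (SE 0.07) with adjusted p = 0.0514. That difference passed in limma without Liver replicate 3 (0.30, adjusted p = 0.0490) and without Liver replicate 4 (0.35, adjusted p = 0.00894). It also passed with a pseudocount of 64 (0.32, adjusted p = 0.0472) and with the mean of all probe sets (0.59, adjusted p = 0.0120). It did not pass without Liver replicate 2 or without any 1 MLN or PLN array. Without MLN replicate 3 it was 0.21 (adjusted p = 0.286) and without MLN replicate 2 it was 0.33 (adjusted p = 0.205). Nor did it pass with intensities as deposited or after median centring. Of the genes in the marker lists of other cell types, 3 also passed the blocked Liver contrast. They were Klrk1 (NK cell list) by 0.77, Lyz2 (macrophage list) by 0.74 and Batf3 (dendritic cell list) by -0.69. The arrays do not show whether T cells or other cells gave the signals of these genes. Their part in the result was not tested.

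The Liver call on Slc2a3 rested in part on 1 array and on the scaling. Without Liver replicate 2 its blocked difference was -0.47 with adjusted p = 0.0577 in limma, with the intensities as deposited it was -0.46 with adjusted p = 0.0535, and after median centring it was -0.45 with adjusted p = 0.126. The other 3 probe sets of Slc2a3 differed by -0.62 to -0.79 in Liver with the block, 1 of them with an adjusted p under the threshold (0.0189). Adjusted p of such other probe sets are from a separate limma fit over all 20380 probe sets with 1 symbol. The second glucose carrier of activated T cells, Slc2a1, which is outside the set of 135, differed by -0.46 in Liver (adjusted p = 0.0352 in limma with the block).

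**Figure D2:**
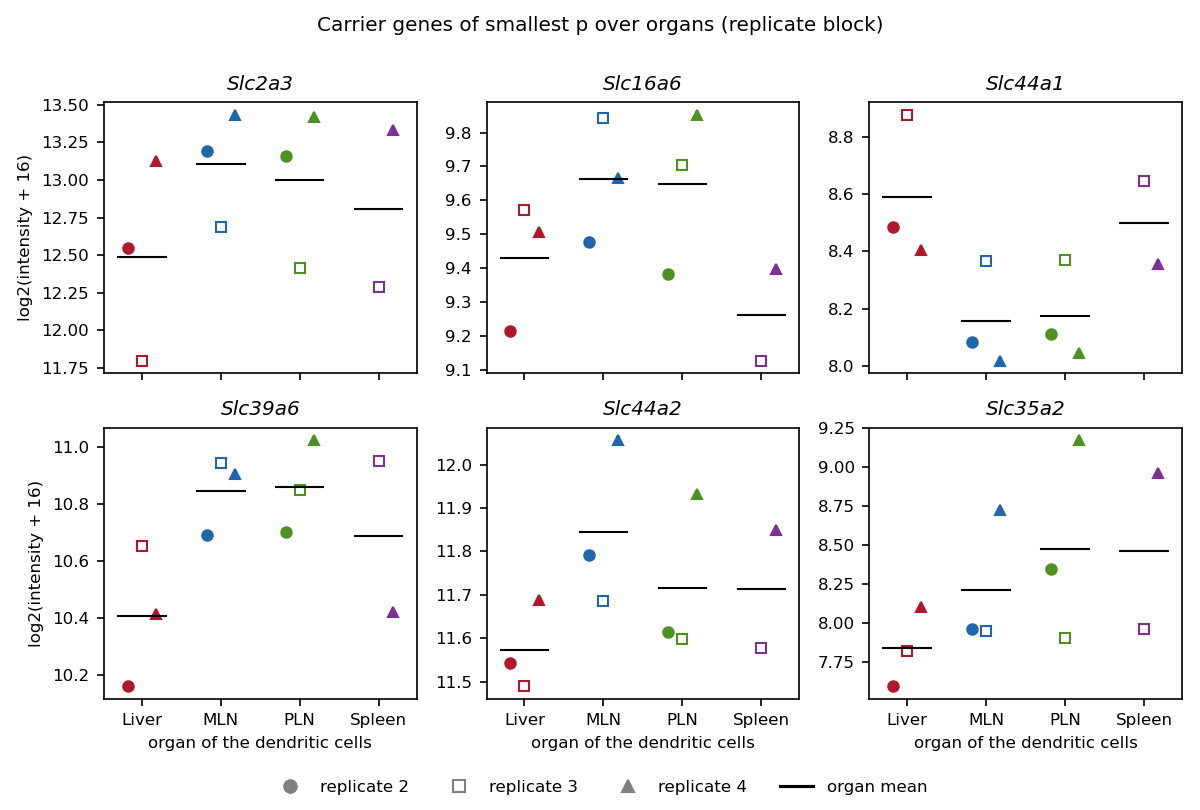
Log2(intensity + 16) on each of the 11 arrays for the 6 carrier genes of smallest p over organs in the fit with the replicate block, by organ of the dendritic cells; the marker's shape is the replicate number and the line the organ mean. Only Slc2a3 passed, with Liver lowest at each number, and in Slc2a3 the numbers spread each organ's points more than the organ means differ. In Slc39a6 the Liver points lay below all points of MLN and PLN.

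The next carrier genes in that ranking did not pass. Slc16a6, a carrier of the monocarboxylate family, had log2 levels of 9.13 and 9.40 in Spleen against 9.21 to 9.85 in the other organs, and its blocked F-test gave adjusted p = 0.0766 in limma. Slc44a1, a choline carrier, had 8.48, 8.88 and 8.40 in Liver and 8.64 and 8.36 in Spleen, against 8.02 to 8.37 in MLN and PLN (adjusted p = 0.0783). Its Liver values lay above all 6 values of MLN and PLN. Slc39a6, a zinc importer, had 10.16, 10.65 and 10.41 in Liver and 10.69 to 11.03 in MLN and PLN (adjusted p = 0.105), without overlap between these organs. Its 2 Spleen values, 10.95 and 10.42, were spread over both ranges. Slc44a2, also of the choline carrier family, had an adjusted p of 0.12, the UDP-galactose carrier Slc35a2 0.174, and the lactate carrier Slc16a3 0.207.

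Among the other members of smallest p without the block, Slc7a5, the leucine-importing light chain, had log2 levels of 11.61, 11.27 and 11.45 in PLN and 10.79 to 11.41 elsewhere. These ranges overlap, and the difference of 0.35 (SE 0.14) did not pass. The iron and manganese carrier of phagosomes Slc11a1 had 6.87, 7.13 and 6.99 in MLN and 7.06 to 7.51 elsewhere, with a small overlap and a difference of -0.40 (SE 0.12). The summed intensity of macrophage markers was 2401 to 3288 in MLN, 2911 to 3883 in Liver, 2649 to 3353 in PLN and 3568 to 4215 in Spleen. The MLN sums thus overlapped those of Liver and PLN. Of the 5 macrophage genes tested, 4 were lower in MLN and 4 in PLN, with medians of -0.27 in both. Their part in the Slc11a1 result was not tested. The peptide carrier Slc15a2 had 7.78, 8.09 and 8.02 in Liver and 7.30 to 7.85 elsewhere. Slc10a6, of the bile acid carrier family, had 7.75 and 7.45 in Spleen and 6.39 to 7.41 elsewhere, without overlap and without passing. For MLN, PLN and Spleen with the block, 1.33%, 0.0131% and 0% of all genes passed and 0 of 135 carrier genes.

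By class, the 15 amino acid carriers had a median difference of 0.13 in PLN, where 12 were higher, and of -0.13 in Liver, where 12 were lower. Both medians over all genes tested were within 0.01 of 0. The 20 amino acid response genes tested, targets of the stress factor ATF4, had medians of 0.24 in PLN, -0.19 in Liver and -0.17 in Spleen, where 16 were lower. With the replicate block the Spleen median was -0.01; Spleen has no array numbered 2. The 29 mitochondrial carriers had a median of -0.09 in PLN, with 23 lower, of 0.06 in Liver, with 20 higher, and of 0.10 in Spleen, also with 20 higher. With the block their Liver median was 0.03. No member of these classes passed in any organ, and each organ enters the others' contrasts.

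Between the arrays numbered 3 and 4, 48 of the 135 carrier genes differed, 26 higher and 22 lower in number 4 (35.6%, 19.3% and 16.3% of the carriers). Of all genes tested 42.7% differed, 22.1% higher and 20.6% lower, so the carriers' share was below the background. Counts by class below are to be read against these 22.1% and 20.6%. In the F-test over the 3 numbers 63 carrier genes (46.7%) passed, against 47.3% of all genes. The sign was the same in all 4 organs for 58 of the 135 carrier genes and 4130 of all 7608 genes. Among the 48, which were called on the mean over these organs, it was the same for 43. Of the 48 calls, 30 remained in each of the 11 fits that left out 1 array. The differences below are of number 4 minus number 3, and the marker sums of T cells and dendritic cells given above moved with the same contrast. Their part in the result was not tested.

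Of the 7 sugar carriers 3 were higher in number 4 and none lower. Slc2a3 was higher by 1.03 (SE 0.07, adjusted p = 1.67e-06 in limma). The values given above show number 4 highest and number 3 lowest within each organ. Its other 3 probe sets differed by 1.32 to 1.46. Slc37a4, which carries glucose 6-phosphate into the endoplasmic reticulum, had log2 levels of 9.94, 10.11, 9.90 and 9.96 on the Liver, MLN, PLN and Spleen arrays numbered 4 and 9.21, 9.31, 9.15 and 9.27 on those numbered 3. The numbers did not overlap, and the difference was 0.74 (SE 0.08, adjusted p = 2.5e-05). Slc50a1, a sugar carrier, was higher by 0.57 (SE 0.08). Slc2a1 was also higher, by 0.79 (SE 0.10).

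The lactate carriers moved in opposite directions. Slc16a3, the isoform typical of cells that export lactate, had 10.96, 11.23, 11.01 and 11.10 in number 4 and 10.31, 10.72, 10.52 and 10.69 in number 3, in the same organ order, and differed by 0.51 (SE 0.07, adjusted p = 0.000175 in limma). Slc16a1 had 10.76, 10.67, 10.72 and 10.75 in number 4 and 11.08, 11.06, 11.07 and 11.03 in number 3, and fell by 0.34 (SE 0.07, adjusted p = 0.00164). Neither gene's values overlapped between the numbers. Bsg, the chaperone that brings both to the surface, was higher by 0.40 (SE 0.07).

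Of the 15 amino acid carriers 1 was higher and 1 lower, with a median of -0.06. Slc7a3, a carrier of cationic amino acids, fell by 0.56 (SE 0.17, adjusted p = 0.018 in limma), although in MLN its values were 8.63 in both numbers. Slc38a10 was higher by 0.25, but with the mean of all its probe sets the difference was -0.03. Slc3a2, Slc7a5, Slc1a5, Slc38a1, Slc38a2 and Slc7a6 did not pass, with differences of -0.10, -0.22, 0.04, -0.02, 0.11 and -0.20.

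Among 15 nucleotide sugar carriers and related genes of the secretory pathway, including the acetyl-CoA carrier Slc33a1, 3 were higher and 4 lower. Slc35a2, for UDP-galactose, was higher by 0.83 (SE 0.14), and Slc35c1, for GDP-fucose, by 0.63 (SE 0.12). Slc35a3, for UDP-N-acetylglucosamine, fell by 0.93 (SE 0.14), Slc35d1, for UDP-glucuronic acid, by 0.60 (SE 0.11), and Slc35a1, for CMP-sialic acid, by 0.44 (SE 0.10). On the 4 organs in order, Slc35a3 had 7.77, 7.87, 7.48 and 7.03 in number 4 and 8.42, 8.67, 8.30 and 8.48 in number 3. Slc35a2 had 8.10, 8.72, 9.17 and 8.96 in number 4 and 7.82, 7.95, 7.90 and 7.96 in number 3. For both genes the numbers did not overlap. Their other probe sets had the same sign and smaller differences, 0.14 to 0.39 for Slc35a2 and -0.34 for Slc35a3, none of which passed.

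**Figure D3:**
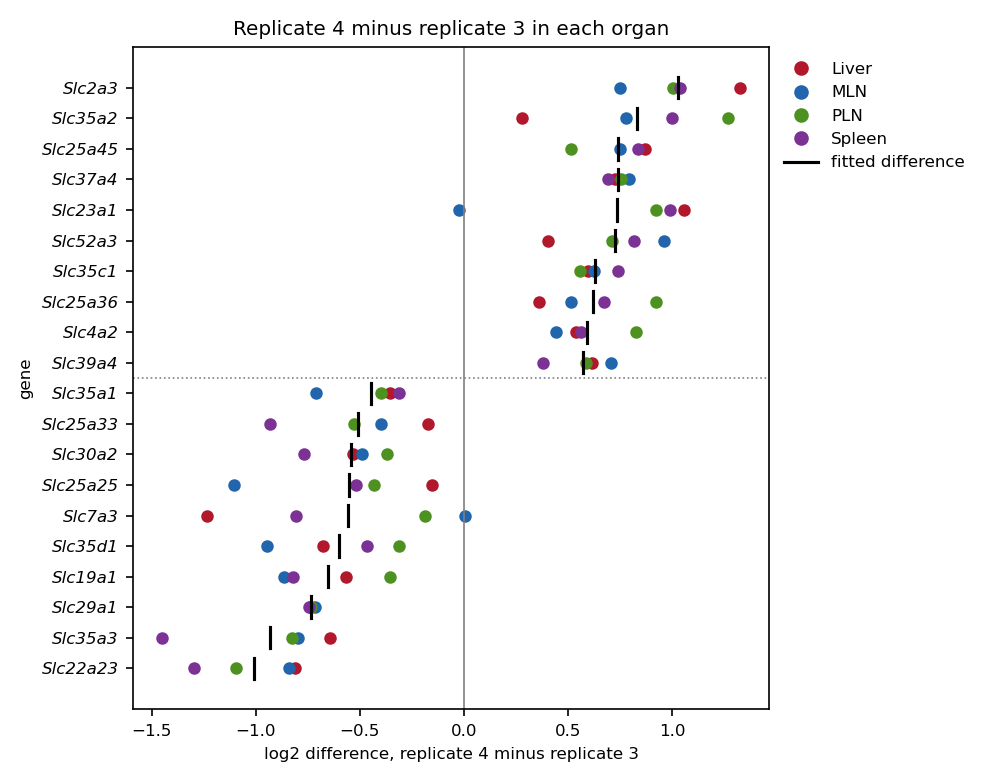
Log2 difference of replicate 4 minus replicate 3 (x axis) within each of the 4 organs (coloured dots) and as fitted over all organs (black bars), for the 10 carrier genes with the largest differences in each direction among those that passed. Dots of a gene lie on 1 side of 0 except for Slc23a1 and Slc7a3, whose MLN values are at 0.

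Of the 29 mitochondrial carriers 7 were higher and 6 lower. Higher were Slc25a45 by 0.74 (SE 0.10), the pyrimidine nucleotide carrier Slc25a36 by 0.62 (SE 0.09), the carnitine carrier Slc25a20 by 0.52 (SE 0.13) and the glutathione carrier Slc25a39 by 0.41 (SE 0.07). Another Slc25a20 probe set differed by 0.21 without passing, and 2 others of Slc25a39 by 0.38 and -0.10. Lower were the ATP-Mg carrier Slc25a25, which fell by 0.55 (SE 0.18), the pyrimidine nucleotide carrier Slc25a33, by 0.51 (SE 0.12), the aspartate-glutamate carrier Slc25a13, by 0.38 (SE 0.11), and the phosphate carrier Slc25a3, by 0.27 (SE 0.04). The pyrimidine carriers Slc25a36 and Slc25a33 thus went opposite ways. The ADP/ATP carrier Slc25a5 fell by 0.12 (SE 0.04, adjusted p = 0.0287 in limma), and 1 of its other 7 probe sets had the opposite sign.

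Among vitamin and choline carriers 3 of 8 were higher and 3 lower. The folate carrier Slc19a1 fell by 0.65 (SE 0.09) and the thiamine carrier Slc19a2 by 0.43 (SE 0.11). The riboflavin carrier Slc52a3 was higher by 0.72 (SE 0.14), and the ascorbate carrier Slc23a1 by 0.74 (SE 0.21), although its MLN difference was -0.03. The choline carrier Slc44a1 fell by 0.36 (SE 0.09), while Slc44a2 was higher by 0.29 (SE 0.05). Slc29a1, the equilibrative nucleoside carrier, had 8.81, 8.66, 8.65 and 8.71 in number 4 and 9.55, 9.38, 9.39 and 9.45 in number 3. It fell by 0.73 (SE 0.08, adjusted p = 3.23e-05 in limma), by nearly the same amount in every organ.

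Of 11 carriers of sodium, protons, calcium, chloride and bicarbonate, 3 were higher and 0 lower, against 22.1% and 20.6% of all genes tested. The anion exchanger Slc4a2 was higher by 0.59 (SE 0.10) and the potassium-chloride carrier Slc12a7 by 0.53 (SE 0.09). The mitochondrial sodium-calcium exchanger Slc8b1 was higher by 0.36 (SE 0.12). The sodium-potassium-chloride carrier Slc12a2 differed by -0.15 without passing. Of 24 metal carriers, the haem carrier Slc48a1 included, 3 were higher and 3 lower. The zinc importers Slc39a4 and Slc39a14 were higher by 0.57 (SE 0.09) and 0.29 (SE 0.10). The magnesium carrier Slc41a3 was higher by 0.46 (SE 0.14). The zinc exporters Slc30a2 and Slc30a5 fell by 0.54 (SE 0.15) and 0.24 (SE 0.07), and the copper importer Slc31a1 by 0.38 (SE 0.08). Another Slc31a1 probe set of lower intensity differed by 0.05, and one of Slc39a14 by -0.01.

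The largest decrease was that of Slc22a23, by 1.01 (SE 0.17), a member of the organic ion family whose mean intensity of 102.6 lies just inside the threshold. The lysosomal peptide carrier Slc15a3 fell by 0.37 (SE 0.11), the phosphate carrier Slc20a1 by 0.19 (SE 0.07), and the fatty acid carrier Slc27a4 was higher by 0.48 (SE 0.10). In genes of the same pathways, 11 of 18 aminoacyl-tRNA synthetases tested were lower and 3 higher in number 4, and Myc, a transcription factor of growing T cells, fell by 0.39 (SE 0.09). Of 20 genes of nutrient sensing by mTORC1, 3 were higher and 1 lower. The shares over all genes tested were 22.1% higher and 20.6% lower.

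The promoters of the carrier genes were searched for the letters of an E-box and of an ATF4 element. Of the 135 genes, 103 had a window in the RefSeq table of GRCm38.p6, from 250 bases before to 50 bases after a transcript start. The E-box CACGTG, which reads the same on both strands and is bound by Myc and related factors, stood in windows of 18 of these 103 genes (17.5%), against 8.09% of all genes with one and 7.15% of all 32851 windows. All genes with a window were not filtered by intensity, whereas the carrier genes were, so these shares are not of like sets. Of the 18 genes, 6 were lower and 3 higher in number 4. Of the 85 with a window and no E-box, 14 were lower and 15 higher. No test was made of these counts, and a match of letters is no sign of binding. Promoters of amino acid carriers with the ATF4 element were to be printed, but of these only Slc1a4 held it, across its start. The stretches of 80 bases shown instead were chosen after the values were seen: E-box genes that differed between the numbers and whose stretch ends before the start, with CACGTG in capitals. Each holds the first match in the gene's first window with a match, and Slc29a1 has 8 windows and Slc20a1 2. The stretches of genes lower in number 4 were Slc16a1 at chr3:104638427-104638506 (plus strand), Slc20a1 at chr2:129198561-129198640 (plus strand), Slc25a13 at chr6:6217256-6217335 (minus strand), Slc29a1 at chr17:45595279-45595358 (minus strand) and Slc30a5 at chr13:100833446-100833525 (minus strand).
Slc16a1: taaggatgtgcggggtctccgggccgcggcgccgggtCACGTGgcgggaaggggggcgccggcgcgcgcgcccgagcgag
Slc20a1: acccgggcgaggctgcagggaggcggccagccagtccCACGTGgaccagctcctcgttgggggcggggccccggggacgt
Slc25a13: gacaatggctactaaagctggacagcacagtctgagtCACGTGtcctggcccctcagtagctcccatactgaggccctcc
Slc29a1: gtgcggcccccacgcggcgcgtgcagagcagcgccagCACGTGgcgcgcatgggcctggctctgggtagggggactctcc
Slc30a5: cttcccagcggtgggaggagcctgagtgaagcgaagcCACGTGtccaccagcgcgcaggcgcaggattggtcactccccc
The genes higher in number 4 were Slc25a36 at chr9:97111186-97111265 (minus strand) and Slc41a3 at chr6:90618996-90619075 (plus strand).
Slc25a36: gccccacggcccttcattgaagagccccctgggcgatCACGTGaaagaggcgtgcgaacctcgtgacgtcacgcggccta
Slc41a3: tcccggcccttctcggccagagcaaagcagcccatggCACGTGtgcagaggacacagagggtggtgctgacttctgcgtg
The core of the element bound by ATF4, TGATGNAA, was searched on both strands. It was in windows of 2 of the 103 genes (1.94%), against 4.51% of all genes with a window, again not filtered by intensity. The 2 carrier genes were the neutral amino acid carrier Slc1a4, with TTGCATCA, and Slc50a1, with TGATGCAA.

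The arrays numbered 2, from Liver, MLN and PLN, were set against the mean of numbers 3 and 4. Of the 135 carrier genes 23 differed, 9 higher and 14 lower in number 2. Over all genes tested 12.6% differed, 5.78% higher and 6.85% lower. After median centring in place of quantile normalisation, 4 carrier genes were higher and 11 lower. Single arrays carried many of these calls. When MLN replicate 2 was left out the count was 3, and when PLN replicate 2 was left out it was 6. Leaving out Liver replicate 2 or MLN replicate 3 gave 15. Only Slc20a1 and Slc9a3r1 were called in each of the 11 fits that left out 1 array.

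Amino acid carriers were among the higher genes. Slc3a2 had log2 levels of 11.53, 11.89 and 12.12 on the Liver, MLN and PLN arrays numbered 2, and 11.30 to 11.56 on the other 8 arrays. MLN and PLN lay above all those 8, and Liver within them. The difference was 0.41 (SE 0.09, adjusted p = 0.0101 in limma). Slc38a2, a glutamine and alanine carrier induced when amino acids are short, had 10.91, 11.38 and 11.23 in number 2 and 10.67 to 11.05 elsewhere, and differed by 0.40 (SE 0.09, adjusted p = 0.0128). Slc7a3 was higher by 0.57 (SE 0.17, adjusted p = 0.0436). The partner of Slc3a2, Slc7a5, differed by 0.15 and Slc1a5 by -0.09, and neither passed. Of the 15 amino acid carriers 3 were higher, 1, Slc38a10, was lower, and the median was 0.15, that of all genes being within 0.01 of 0.

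Amino acid response genes also differed in number 2. Of 20 tested, 19 were higher in number 2 and 11 passed, none lower, with a median of 0.46. Ddit3, a stress transcription factor, was higher by 1.04, Trib3, a pseudokinase induced by ATF4, by 1.18, and Asns, asparagine synthetase, by 0.69. Psat1 and Phgdh, of serine synthesis, were higher by 0.52 and 0.37. Of 18 aminoacyl-tRNA synthetases 6 were higher and none lower. The shares over all genes tested were 5.78% higher and 6.85% lower. The metal-binding metallothioneins Mt1 and Mt2 were higher by 0.68 and 1.01, and the transferrin receptor Tfrc fell by 0.59. Markers of other cell types differed in the same contrast. All 5 B cell genes were higher, with Cd79b passing at 0.61, and 11 of 13 dendritic cell genes were lower, with Itgax passing at -0.84 and Ccr7, higher, at 0.45. Of the 10 T cell genes 6 were lower and 4 higher, with a median of -0.05, and 1 passed, Cd3e, which fell by 0.44. Of the 2 NK cell genes tested, Eomes, also expressed in T cells, fell by 0.65, and Klrk1 was higher without passing. Their part in the result was not tested. The lists were chosen with earlier results of these data known and are not independent evidence of a direction.

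**Figure D4:**
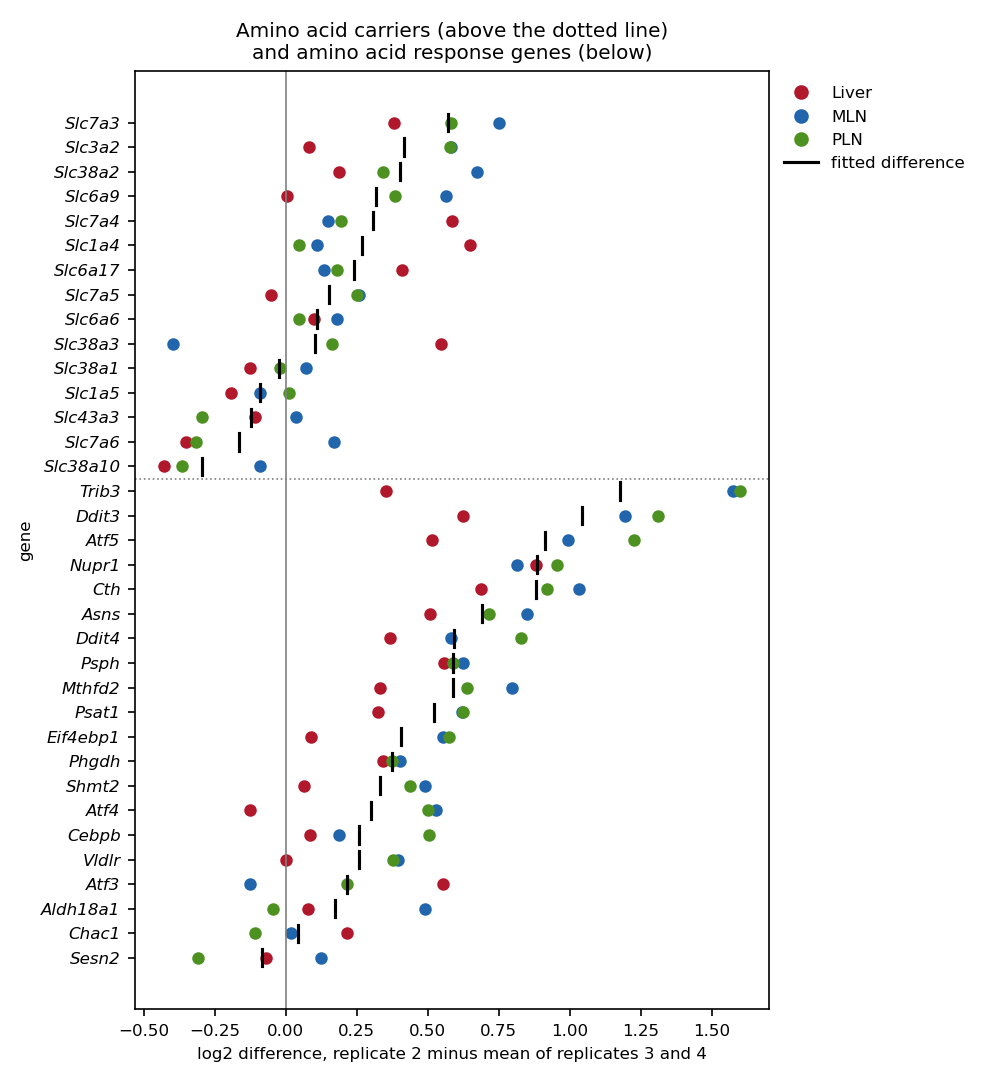
Log2 difference of replicate 2 minus the mean of replicates 3 and 4 (x axis) within Liver, MLN and PLN (coloured dots) and as fitted (black bars), for the 15 amino acid carriers above the dotted line and the 20 amino acid response genes tested below it. In most rows at the top of each group the MLN and PLN dots lie to the right of the Liver dot, as for Slc3a2, Slc38a2, Trib3 and Ddit3.

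Other carriers higher in number 2 were the haem carrier Slc48a1 by 0.45 (SE 0.10), the zinc carrier Slc30a9 by 0.38 (SE 0.09), and the mitochondrial carriers Slc25a30 and Slc25a36 by 0.31 each. Another Slc48a1 probe set differed by 0.02. Slc37a4 and Slc25a3 were higher by 0.27 and 0.17. Lower were Slc20a1, with 10.29, 10.08 and 10.15 in number 2 and 10.40 to 10.76 elsewhere, without overlap. It fell by 0.45 (SE 0.07, adjusted p = 0.0021 in limma), while a dimmer probe set of the gene differed by -0.05. The scaffold gene Slc9a3r1 had 11.16, 11.21 and 11.24 in number 2 and 11.47 to 11.94 elsewhere, and fell by 0.45 (SE 0.07, adjusted p = 0.0028). Its 2 other probe sets fell by 0.31 and 0.29.

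The remaining decreases in number 2 lay in several classes. The GDP-fucose carrier Slc35c1 fell by 0.60 (SE 0.12), Slc15a3 by 0.59 (SE 0.11), the zinc importer Slc39a1 by 0.55 (SE 0.12) and the mitochondrial carrier Slc25a24 by 0.61 (SE 0.17). Slc33a1, Slc10a3, Slc37a3 and Slc16a6 fell by 0.52, 0.47, 0.37 and 0.33. Slc39a7, Slc38a10, Slc30a5 and Slc25a39 fell by 0.33, 0.30, 0.27 and 0.27. None of the 11 ion carriers passed in this comparison, with a median of -0.19 and 10 of 11 lower.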

How the data were processed

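Single-colour array intensities on a linear scale were deposited by the authors, 1 value per probe set and array. No source used here names their software. The mean trimmed by 2% was 500.2 on every array, medians ran from 144.3 to 170.4, and the number of arrays limits the precision. Of 22690 probe sets, 64 controls were left out, 20380 had 1 symbol, 691 several and 1555 none. Log2(intensity + 16) was quantile normalized; the added 16 understates differences of genes of low intensity. For each of 12393 genes the probe set of highest mean was used, and the 7608 with mean intensity of 100 or more were tested. All 135 carrier symbols were in the reference table.

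Tests used limma 3.58.1 in R 4.3.3, lmFit and eBayes with a variance trend, Benjamini-Hochberg adjustment over all genes tested, at 0.05. One fit had organ means alone (7 residual degrees of freedom), and a second added the replicate number as a block (5). The number contrasts come from the second. Other probe sets of a gene were tested in a separate fit of all 20380 probe sets with 1 symbol, without the intensity filter. Their calls are thus adjusted over a larger set than those of the genes. The numbers pair the arrays: after organ means were subtracted, the 15 same-number pairs correlated at 0.386 to 0.724 and the 30 others at -0.694 to 0.0976. Alternatives changed scaling, pseudocount, filter, probe set choice, block and 1 array at a time.

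Members and lists were chosen with earlier results of these data known. By rule, genes were named from up to 10 passing members in each direction per comparison, filled by smallest p to 5. The 10 of smallest p in each F-test and the 10 of highest mean were added. So were up to 3 of highest mean and 3 of smallest p per class, and threshold neighbours. Members with an array apart from its group and a set known in activated T cells completed the rule. Not every gene within it is named, for example Slc17a9 and Slc37a1 for Liver and Slc39a8 in the organ F-test, so a further choice was made. Slc25a13, Slc25a20, Slc27a4, Slc30a5, Slc31a1, Slc38a10 and Slc8b1 fall outside that rule and were chosen after their values were seen, as were the promoters and the genes named from the other lists.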

Additional observations from a re-analysis of the deposited data

Results flagged for a closer look

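The 61 carrier genes with the largest passing differences or smallest p in the comparisons and F-tests were examined here. Other carrier genes named above, such as Slc16a1 and Slc12a7, were not. For each of the 61, the 4 arrays numbered 3 and the 4 numbered 4 were searched for an array far from the others. Chance gives one in about 1 of 20 groups. The 3 arrays numbered 2 are too few and were not examined. Of 122 groups, 6 had one, and all 6 were among the arrays numbered 3. Slc3a2 was low on MLN replicate 3, at a log2 level of 11.31 against 11.55 for the nearest. Slc48a1 was low on the same array, at 8.89 against 9.22. Slc10a3 was high on Liver replicate 3, at 8.72 against 8.42, and Slc35c1 low there, at 8.23 against 8.33. Slc25a24 was high on Spleen replicate 3, at 7.93 against 7.66, and Slc52a3 on PLN replicate 3, at 8.05 against 7.76.

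Of the 48 carrier genes that differed between numbers 3 and 4, 5 had an organ whose sign was opposite to that of the other organs. In MLN the difference was 0.0042 for Slc7a3, -0.0254 for Slc23a1, -0.0462 for Slc25a51 and -0.1044 for Slc41a3. In Liver it was -0.0705 for Slc66a2. These differences between organs were not tested.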

How the results depend on the processing

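With the replicate block, which uses the pairing of arrays by number, 1 carrier gene was called in the organ F-test and 1 for Liver, against 0 and 0 without it; the block changed no other organ call. The blocked MLN count was 1 with a pseudocount of 64 and 1 with the mean of all probe sets, against 0. It stayed 0 with intensities as deposited and with median centring. The blocked fit was varied after the data had been seen. Its F-test count was 0 with intensities as deposited and 0 without the intensity filter, and its Liver count 0 with intensities as deposited and 0 with median centring. Leaving out 1 array gave 0 to 3 in the F-test and 0 to 3 for Liver. For number 2, median centring gave 15 carrier genes and leaving out 1 array 3 to 24, against 23. With the mean of all probe sets, 20 carrier genes were higher and 26 lower in number 4, against 26 and 22, and Slc38a10 turned from higher to lower (-0.0302, adjusted p = 0.789 in limma). Single genes that passed or had the smallest p in a comparison were followed through the alternatives. Under those that kept all arrays, 674 values kept their direction and side of the threshold, 62 lost a call, 2 gained one and 1 reversed. With 1 array left out, 851 kept both, 170 lost a call, 2 gained one and 0 reversed. The causes were not tested. Signal over background is not measured in these values, and log2 differences understate changes of genes of low intensity.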
